A study of Mus musculus with 50 samples.

Results

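Gene expression at the late 2-cell stage (late 2C) was compared between mouse embryos that had received Duxbl mRNA and embryos that had received mCherry mRNA. The comparison holds 11 of the 50 RNA sequencing libraries of the series, 5 of Duxbl and 6 of mCherry embryos, chosen by their labels alone, and it was made across all genes. All embryos were labelled wild type (WT) of the C57BL6/J strain. Duxbl embryos had been injected with 200 ng/µl of an mRNA encoding Duxbl with a V5 tag, a 2A peptide and mCherry with a nuclear localisation signal (Duxbl-V5-2A-NLS-mCherry). Control embryos had been injected with NLS-mCherry mRNA at the same concentration. Late 2C embryos were collected 48 h after the hormone hCG, and each library was made from 5 pooled embryos without RNA extraction. Uninjected embryos at late 2C (6 libraries) and at early 2C (32 h, 6 libraries) gave the normal course, and Duxbl (5) and mCherry (6) embryos at early 2C served to compare the effect between stages. A library is therefore an average over embryos and over both cells of each embryo, and the level of Duxbl reached here came from injected mRNA in addition to the embryo's own gene.

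Duxbl belongs with Dux to the double homeobox proteins. Dux switches on a burst of genes and retroelements when the mouse genome is activated at the 2-cell stage. In the normal embryo this burst is short: the first zygotic transcripts give way to genes of ribosome production, metabolism and cell division as major genome activation proceeds, while RNA stored in the egg is destroyed. Duxbl binds DNA through homeodomains like those of Dux but is known for acting against the 2-cell program. The series asks what raised Duxbl does to the passage out of the totipotent 2-cell state.

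Values are given as CPM, that is deposited values relative to the TMM-scaled size of each library, and differences as log2(CPM + 1) of Duxbl minus mCherry; the added 1 CPM makes differences of low genes smaller. The call rule was that limma's two-sided adjusted p (Benjamini-Hochberg over all genes tested) lay under 0.05. The labels do not say whether the tubes came from separate matings or injection sessions, so p-values measure the spread between tubes, and no batch or date was given. The labels were checked on the injected gene first. Duxbl1 (ENSMUSG00000048502, mm39 chr14:25979001-25990512, plus strand) stood at 2794, 1409.8, 4557, 2773 and 2746 CPM in the Duxbl libraries numbered 1, 3, 4, 6 and 7, the order used throughout. The 6 mCherry libraries held 149.8 to 488 (median 334) and the uninjected late 2C libraries 82.4 to 635 (median 432) CPM. Each Duxbl library was above each mCherry library, with a log2 difference of 3.14 (SE 0.42, limma adjusted p 1.66e-06). Injected and endogenous transcripts cannot be told apart in this value. Duxf3, the gene of Dux, was at 0.0874 ± 0.0878 CPM (SD, n = 5) in Duxbl and 0.0677 ± 0.142 (n = 6) in mCherry embryos, below the filter for testing.

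Deposited totals were 18.8 to 22.5 M in Duxbl libraries and 12.8 to 18.7 M in mCherry libraries, but these are scaled. The approximate depths recovered from the steps between low values were 13.7 to 20.6 M and 14.1 to 25.3 M reads. The 100 highest genes took 18.4% to 21.5% of a Duxbl library and 9.31% to 12.9% of an mCherry library, and at early 2C they took 16.9% to 23.2% of an uninjected library. Of 23052 genes tested, 0 were called between mCherry and uninjected embryos at late 2C by limma, and 383 had an unadjusted p under 0.05. If no gene differed, a share of about 0.05 would pass that limit, and 383 is fewer. The 0 does not show that injection changed nothing, and a fit of all 9 groups called 40 genes.

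Most genes tested differed between Duxbl and mCherry embryos. Of 23052 genes, 12876 were called (55.9%), 6173 higher (26.8%) and 6703 lower (29.1%) in Duxbl embryos. Differences of at least 2-fold were found in 5597 higher and 6166 lower genes. At 16-fold the comparison was lopsided, with 23 higher and 618 lower genes. The log2 differences of all genes tested had a median of -0.05, and 5% lay below -3.36 and 5% above 2.29. Against uninjected embryos of the same stage, 13206 genes were called (57.3%). For 7960 genes (34.5%) the Duxbl and mCherry values did not overlap. Scaling by library totals alone moved the median by -0.21 and gave 4957 higher and 7510 lower genes. A higher level here is a larger share of the RNA of the library. In pooled embryos, fewer cells that express a gene and less RNA of it per cell cannot be told apart.

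The 4 genes with which the comparison had been marked show both sides of it, and they were chosen with these results known, so their values are a description. Obox8 (ENSMUSG00000099216, mm39 chr7:14065361-14067482, minus strand), of the oocyte-specific homeobox family, stood at 2.25, 3.26, 2.01, 3.33 and 10.9 CPM in the Duxbl libraries and at 382 to 1092 (median 661) CPM in mCherry libraries. Trim43a (ENSMUSG00000090693, mm39 chr9:88462944-88470872, plus strand), of a family of tripartite motif genes transcribed in the cleaving embryo, stood at 2.39, 4.37, 1.62, 1.97 and 6.08 against 267 to 851 (median 448) CPM. In uninjected embryos both rise from a few CPM at early 2C (medians 2.81 and 2.58) by late 2C, and in Duxbl embryos at late 2C both stood near those early values. Wnt1 (ENSMUSG00000022997, mm39 chr15:98687738-98691718, plus strand), a secreted ligand best known from the neural tube, stood at 33.9, 22.4, 142, 59.2 and 47.2 CPM in Duxbl and 0 to 2.07 (median 0.156) in mCherry libraries. Nr2f1 (ENSMUSG00000069171, mm39 chr13:78337092-78347876, minus strand), a nuclear receptor of the developing brain, stood at 31.2, 36, 43.9, 35.2 and 44 against 0 to 0.202 (median 0.0508) CPM. Neither of these belongs to the normal course: in uninjected embryos the highest library held 1.44 CPM of Wnt1, at late 2C, and 1.84 CPM of Nr2f1, at early 2C. The log2 differences were -7.11 for Obox8, -6.85 for Trim43a, 5.26 for Wnt1 and 5.18 for Nr2f1.

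**Figure D1:**
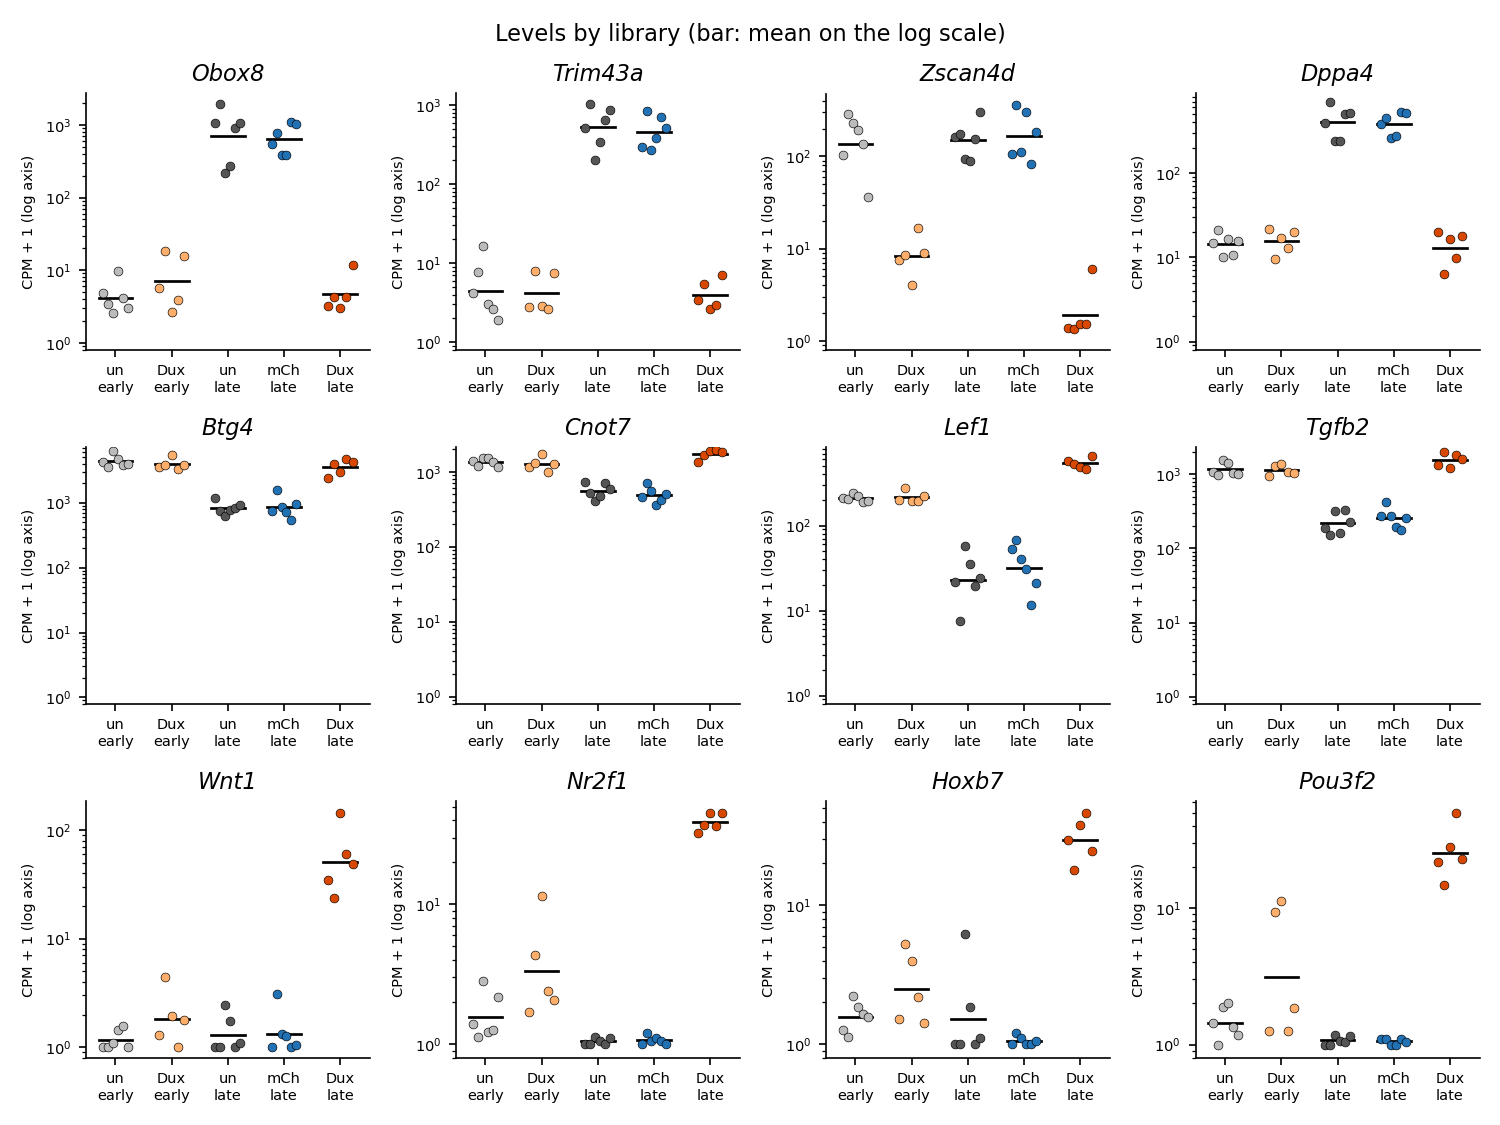
Level of 12 genes in each library, as CPM + 1 on a log axis. Shown are uninjected (un) and Duxbl (Dux) embryos at early 2C and uninjected, mCherry (mCh) and Duxbl embryos at late 2C. Each point is a library of 5 embryos and the bar is the mean on the log scale. Obox8, Trim43a, Zscan4d and Dppa4 are lower in Duxbl embryos at late 2C, and Btg4, Cnot7, Lef1 and Tgfb2 stay near or above their early 2C level. Wnt1, Nr2f1, Hoxb7 and Pou3f2 are near 0 outside Duxbl embryos in the groups shown.

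The start regions of a pair of genes from each side are printed because they differ in their density of CG dinucleotides, shown in capitals. They are RefSeq sequences of build GRCm38.p6, 5′ to 3′, from 250 bases before to 50 bases after the annotated start.
Trim43a promoter (GRCm38.p6, chr9:88580641-88580940, plus strand): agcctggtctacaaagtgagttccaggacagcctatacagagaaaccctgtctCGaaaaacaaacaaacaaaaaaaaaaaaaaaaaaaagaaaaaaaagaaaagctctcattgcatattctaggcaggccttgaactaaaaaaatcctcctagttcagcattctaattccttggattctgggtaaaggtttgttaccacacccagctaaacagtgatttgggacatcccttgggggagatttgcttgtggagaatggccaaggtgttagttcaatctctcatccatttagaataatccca
Zscan4d promoter (GRCm38.p6, chr7:11166099-11166398, minus strand): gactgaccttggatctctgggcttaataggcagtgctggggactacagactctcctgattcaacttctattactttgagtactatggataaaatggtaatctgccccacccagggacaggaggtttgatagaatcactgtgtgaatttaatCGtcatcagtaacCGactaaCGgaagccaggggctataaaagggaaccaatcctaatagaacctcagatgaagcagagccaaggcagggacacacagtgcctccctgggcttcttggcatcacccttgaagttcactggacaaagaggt
Wnt1 promoter (GRCm38.p6, chr15:98789607-98789906, plus strand): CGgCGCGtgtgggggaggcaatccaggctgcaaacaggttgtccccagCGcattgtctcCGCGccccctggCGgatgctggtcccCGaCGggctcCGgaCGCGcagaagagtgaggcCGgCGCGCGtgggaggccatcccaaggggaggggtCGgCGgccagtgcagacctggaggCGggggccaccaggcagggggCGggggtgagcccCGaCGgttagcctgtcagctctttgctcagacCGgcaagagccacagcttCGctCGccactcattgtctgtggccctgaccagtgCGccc
Nr2f1 promoter (GRCm38.p6, chr13:78198824-78199123, minus strand): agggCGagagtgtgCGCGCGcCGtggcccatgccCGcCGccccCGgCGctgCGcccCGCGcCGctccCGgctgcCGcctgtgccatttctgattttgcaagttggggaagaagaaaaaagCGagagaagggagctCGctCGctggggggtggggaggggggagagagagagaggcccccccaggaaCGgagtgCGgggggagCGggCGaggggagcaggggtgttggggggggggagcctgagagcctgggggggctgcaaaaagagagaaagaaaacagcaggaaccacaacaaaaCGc

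The Trim43a and Zscan4d regions hold 1 and 3 CG dinucleotides and a GC share of 39% and 47.7%. The Wnt1 and Nr2f1 regions hold 26 and 23, with a GC share of 70.7% and 68%. RefSeq lists a further start for Nr2f1, at chr13:78196400-78196699 of the same build, whose region holds 4 CG dinucleotides and a GC share of 43%. The printed regions are examples and do not stand for all genes of their side. Over all start regions found, the median ratio of observed to expected CG dinucleotides was 0.677 in higher and 0.75 in lower genes. The printed pairs thus run opposite to the whole, for which values are given below.

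Each gene was next placed by what it does in uninjected embryos between early and late 2C, where 6625 of 28808 genes rise (23%) and 5799 fall (20.1%) by at least 2-fold with an adjusted p under 0.05. Of the 23052 genes tested at late 2C, 6624 normally rise, 5446 normally fall and 10982 do neither. Of the normally rising genes 4659 were lower in Duxbl embryos (70.3%) and 152 higher, with a median log2 difference of -1.78. Of the normally falling genes 3346 were higher (61.4%) and 139 lower, with a median of 1.29. The genes without such a change split into 2675 higher and 1905 lower, with a median of 0.09. Genes that normally rise made up 40.7% ± 2.85 of an mCherry library (SD, n = 6) and 8.72% ± 1.35 of a Duxbl library (n = 5), against 5.41% ± 0.273 in uninjected embryos at early 2C (n = 6). Genes that normally fall made up 21% ± 2.95, 47.8% ± 2.91 and 62.6% ± 1.69.

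The distance each library had covered between early 2C (0) and late 2C (1) of uninjected embryos differed between the rise and the fall. For normally rising genes the median gene stood at 0.136, 0.0189, 0.0538, 0.0159 and 0.0799 of the way in the Duxbl libraries, and at 0.915 to 1.07 in mCherry libraries. The group means were 0.0608 ± 0.0495 and 0.984 ± 0.0627. For normally falling genes Duxbl libraries had covered 0.219 to 0.407 of the way (mean 0.32 ± 0.0723) and mCherry libraries 0.858 to 1.07 (mean 0.96 ± 0.0879). No Duxbl library reached an mCherry library on either measure. The two-sided exact permutation p was 0.00216 for each, the smallest that 5 against 6 libraries allow. In each Duxbl library the median normally falling gene had thus moved further from its early 2C level than the median normally rising gene. These levels are shares of a library, and amounts of RNA per embryo were not measured. At early 2C the Duxbl libraries had stood at -0.00192 and 0.00919 on the 2 measures, level with the controls.

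**Figure D2:**
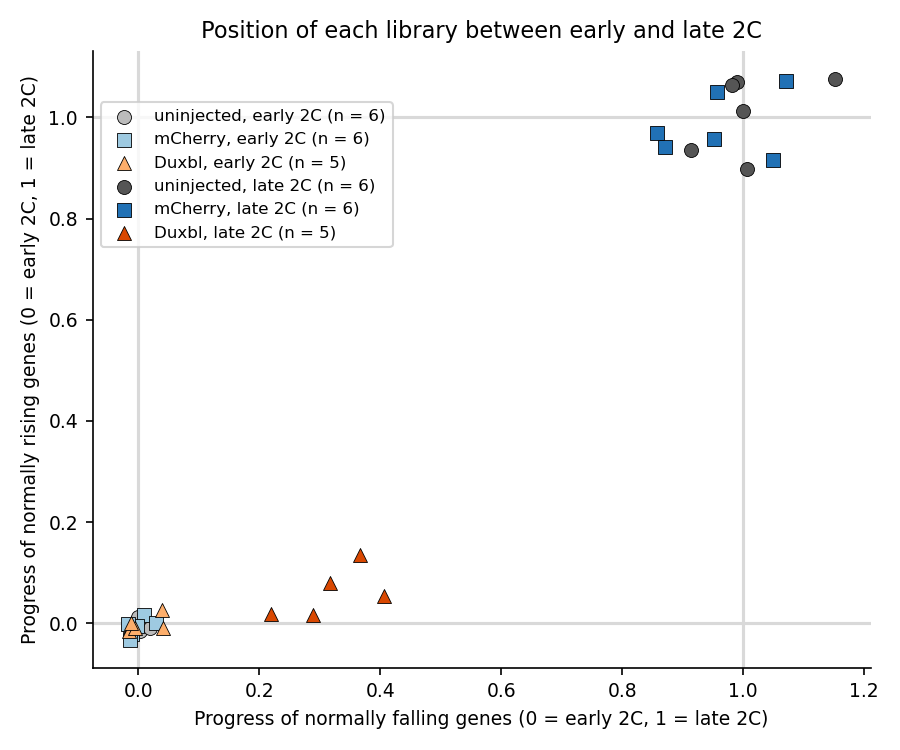
Progress of each library from early 2C (0) to late 2C (1) of uninjected embryos, for normally falling genes (horizontal) and normally rising genes (vertical); each point is a library. The 5 Duxbl libraries at late 2C sit at 0.219 to 0.407 of the fall and 0.0159 to 0.136 of the rise, apart from the control libraries of both stages.

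Single genes did not all stop at the same place. From group means, 42% of the normally rising genes stood within 0.25 of their early 2C level in Duxbl embryos, 18.7% were lower than that, 25.2% were between the stages, 8.5% had come within 0.25 of the late 2C level and 5.59% exceeded it. In mCherry embryos 82.5% were near the late level. Of the normally falling genes 28.3% were near the early level, 37% between the stages and 14.2% near the late level, and 13.8% stood more than 0.25 of the way above the early level from which they normally fall. In mCherry embryos 84.4% were near the late level.

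**Figure D3:**
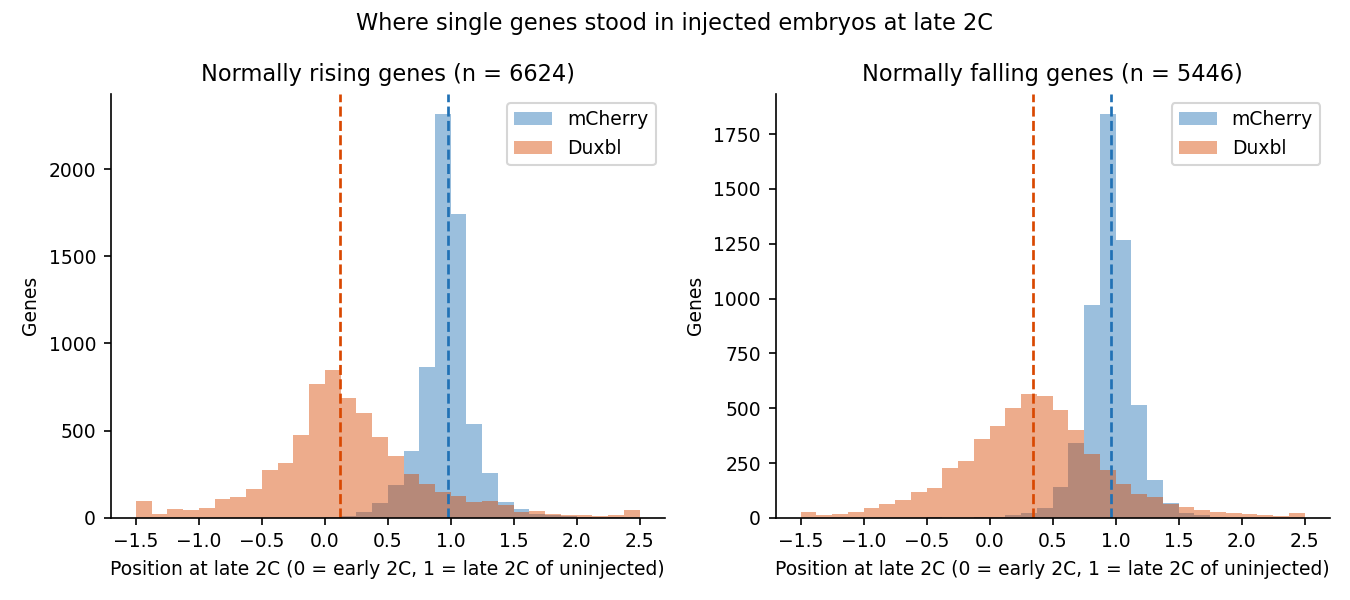
Number of normally rising genes (left, n = 6624) and normally falling genes (right, n = 5446) by their position at late 2C, where 0 is the early and 1 the late 2C mean of uninjected embryos; values beyond -1.5 and 2.5 are counted in the end bins and dashed lines are medians. In mCherry embryos the medians are 0.976 and 0.96, and in Duxbl embryos 0.123 and 0.343 with a wide spread.

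Transcripts of the 2-cell burst were far lower in Duxbl than in mCherry embryos. Of 46 tested members of this list 44 were lower and 1 was higher, with a median log2 difference of -4.52, against 29.1% lower over all genes. The members lower include Zscan4 genes, which guard telomeres in 2-cell-like cells, the deubiquitinase genes Usp17l, the Eif1ad genes, which resemble a translation initiation factor, and the Tdpoz genes of BTB-domain proteins. Their copies are nearly identical and share reads, so single members are uncertain and sums over families were compared. Zscan4 genes summed to 17.5, 1.91, 6.91, 1.17 and 8.88 CPM in the Duxbl libraries, against 262 to 996 (median 452) in mCherry libraries. Tdpoz genes summed to 40.3, 1.51, 1.37, 1.12 and 4.37 CPM in the Duxbl libraries, against 232 to 883 (median 361) in mCherry libraries. Trim43 genes summed to 26.7, 8.88, 5.74, 9.7 and 19.3 CPM in the Duxbl libraries, against 669.7 to 2061 (median 1197) in mCherry libraries. In each of these families the highest Duxbl library was far below the lowest mCherry library, and Duxbl library 1 was the highest of its group. Eif1ad genes summed to 301, 15.2, 35, 9.04 and 18.4 CPM in the Duxbl libraries, with library 1 apart from the others, against 587 to 2879 CPM in mCherry libraries. Usp17l genes summed to 3.84 to 50.8 against 279.6 to 1594 CPM. Log2 differences of the sums were -6.21 for Zscan4, -6.25 for Tdpoz, -6.47 for Trim43, -5.41 for Eif1ad and -5.18 for Usp17l. Without Duxbl library 1 they were -7.02 for Tdpoz and -6.22 for Eif1ad. The two-sided exact permutation p was 0.00216 in all 5, the smallest possible, and 0.00303 adjusted over 7 families.

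Some of these transcripts are already present at early 2C in normal embryos. Zscan4d had a median of 164 CPM in uninjected early 2C libraries, and stood at 0.383, 0.351, 0.539, 0.515 and 4.97 CPM in Duxbl and 81.6 to 362 (median 148) CPM in mCherry libraries at late 2C, a difference of -6.43 (SE 0.44, limma adjusted p 1.31e-10). Zscan4a stood at 0.622, 0.301, 0.392, 0.562 and 1.47 against 115 to 264 (median 166) CPM (-6.66 (SE 0.37, limma adjusted p 9.13e-12)). For Zscan4d each Duxbl library was below the lowest uninjected library of early 2C (35.5 CPM). Usp17lc (-4.82), Zscan4c (-5.0) and Eif1ad8 (-5.19) had, with Zscan4d, the largest differences among lower genes without a normal change. The member of the list that was higher was Zfp750, a zinc finger gene that normally falls at this step. It stood at 38.6, 14.1, 24.4, 21 and 42.5 CPM against 4.61 to 17.7 (median 8.64), a difference of 1.48 (SE 0.52, limma adjusted p 0.0199), and its groups overlapped.

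In the Obox and PRAME-like families members moved both ways. Obox1 and Obox2, which the egg stores, stood at 851 to 1253 and 763 to 1706 CPM in Duxbl embryos, against 148 to 525 and 149 to 481 in mCherry embryos. Their log2 differences were 1.89 (SE 0.28, limma adjusted p 6.91e-06) and 1.97 (SE 0.28, limma adjusted p 3.42e-06), while Obox8 went down. Of 7 tested Obox genes 4 were higher (Obox1, Obox2, Obox5 and Obox7) and 3 lower (Obox8, Obox6 and Obox3). The sum over Obox genes, 3541 to 5357 against 2534 to 5060.2 CPM, overlapped between the groups, with a difference of 0.38 and an exact permutation p of 0.108. Of 42 PRAME-like genes, members of a leucine-rich repeat family of the germ line and early embryo, 12 were higher (28.6%) and 24 lower (57.1%). Their median was -1.86, and over all genes 26.8% were higher and 29.1% lower. Pramel6 stood at 0.67, 0.452, 0.539, 0.562 and 2.26 against 100.5 to 326 (median 186) CPM (-6.65 (SE 0.49, limma adjusted p 3.57e-10)) and Pramel16 at -6.16. Pramel27, which normally falls, stood at 906, 1175, 1027, 1465 and 1351 against 77.5 to 319 (median 157) CPM (2.9 (SE 0.29, limma adjusted p 2.68e-08)). The sum over the PRAME-like genes was higher in Duxbl embryos by 1.27, at 7567 to 13447 against 3016 to 7482 CPM, although the median member was lower. Its exact permutation p was 0.00433, or 0.00505 adjusted over 7 families.

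Genes that carry out transcription were mostly lower, against 29.1% lower and 26.8% higher over all genes. Of 32 regulators tied to genome activation 22 were lower and 4 higher, with a median of -1.28. Dppa4, a chromatin factor that with Dppa2 acts upstream of Dux in mouse cells, stood at 19.2, 5.42, 15.4, 8.76 and 17.1 against 258 to 535 (median 409.8) CPM (-4.89 (SE 0.33, limma adjusted p 9.98e-11)). Cdk9, the kinase that releases paused RNA polymerase II, stood at 8.38, 8.33, 19.8, 15.1 and 16.4 against 97.6 to 198 (median 150.3) CPM (-3.43 (SE 0.26, limma adjusted p 6.19e-10)). Each Duxbl library was below each mCherry library for both. Crebbp, a histone acetyltransferase, was higher (650.4 ± 63.3 against 222 ± 40 CPM, log2 difference 1.56 (SE 0.24, limma adjusted p 9.47e-06)). Of 75 Mediator and general transcription factor genes 40 were lower (53.3%) and 16 higher (21.3%). The sums over these genes overlapped, at 7113 to 9759 against 6715 to 10965 CPM. Among them Med29, a Mediator subunit, stood at 10.8, 2.36, 16.5, 2.67 and 6.91 against 273 to 499 (median 309) CPM (-5.56 (SE 0.37, limma adjusted p 7.93e-11)), and Gtf3c4, of the factor that recruits RNA polymerase III, was at -5.51. Taf9b, a subunit of the general factor TFIID, was higher at 2.87.

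RNA polymerase subunits were lower in 24 of 30 cases (80%) and higher in 3 (10%), with a median of -1.99. Over all genes 29.1% were lower and 26.8% higher. Polr2e, shared by all nuclear RNA polymerases, was lower (-3.11), as was Polr1c of polymerases I and III (-4.28). Polr2c of polymerase II normally falls at this step and was higher (1.33, 934 to 1365 against 369 to 644 CPM). Of 63 splicing factor genes 40 were lower (63.5%) and 8 higher (12.7%). Snrpd2, a core protein of the spliceosomal particles, stood at 2.84 to 9.14 against 143 to 235 CPM (-4.72 (SE 0.27, limma adjusted p 9.64e-12)), and Snrpc of the U1 particle was at -4.76. Srsf12, an SR-type splicing gene, went the other way (3.62, 5.32 to 64.5 against 0 to 2.34 CPM).

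Ribosome production was the most uniformly lower group among the housekeeping lists, against 29.1% lower over all genes. Of 76 ribosomal protein genes 71 were lower (93.4%) and 0 higher, with a median of -2.86. In normal embryos 71 of the 76 rise at this step. They summed to 2118 to 3352 CPM in Duxbl, 10005 to 20537 in mCherry and 2656 to 3192 in uninjected early 2C libraries, so the rise was missing. Of 60 ribosome biogenesis genes 54 were lower and 0 higher, with a median of -2.58. Rpsa, of the small subunit, stood at 11.9, 6.68, 4.56, 6.84 and 9.25 against 139 to 319.7 (median 212) CPM (-4.64 (SE 0.27, limma adjusted p 9.85e-12)), and uninjected embryos at early 2C had a median of 3.80. Rpl3, of the large subunit, stood at 10.6, 5.77, 6.57, 9.41 and 9.67 against 87.3 to 127 (median 103) CPM (-3.52 (SE 0.23, limma adjusted p 6.74e-11)), with an early 2C median of 8.62. Wdr74, a large-subunit assembly factor, stood at 2.92, 1.86, 0.588, 0.375 and 1.89 against 156 to 289 (median 186) CPM (-6.37 (SE 0.29, limma adjusted p 9.19e-13)), and Nob1, which trims the small-subunit RNA, was at -4.69. For Wdr74 and Rpl3 most Duxbl libraries lay near or below the early 2C medians, 6.53 CPM for the former. Many ribosomal protein genes have processed pseudogenes that can share reads, so single values are uncertain.

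The remaining protein synthesis lists were lower with more exceptions, against 29.1% lower and 26.8% higher over all genes. Of 40 translation initiation genes 24 were lower (60%) and 2 higher (5%). Eif6, which keeps ribosomal subunits apart, was at -3.73 and Eif2b5, of the exchange factor eIF2B, at -3.53. Eif4e3, a cap-binding protein whose RNA normally falls, was higher at 2.12 (179 to 269 against 29.1 to 71.1 CPM). Of 21 aminoacyl-tRNA synthetase genes 14 were lower (66.7%) and 2 higher (9.52%). Mars1, which charges methionine, stood at 0.527, 0.151, 0.392, 0.89 and 1.75 against 23.7 to 64.8 (median 34.2) CPM (-4.54 (SE 0.36, limma adjusted p 1.06e-09)), and Aars, which charges alanine, was at -3.22. Fars2, the mitochondrial enzyme for phenylalanine, was higher at 1.47. Of 53 nuclear pore and transport genes 23 were lower (43.4%) and 4 higher (7.55%). The importin gene Kpna1 was at -4.73 and its relative Kpna3 at 1.71.

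Mitochondrial and protein turnover genes followed, against 29.1% lower and 26.8% higher over all genes. Mitochondrial ribosomal proteins were lower in 53 of 77 cases (68.8%) and higher in 6 (7.79%), with a median of -1.65. Mrpl41 stood at 1.15, 3.87, 1.32, 3.79 and 2.39 against 160.5 to 287 (median 256) CPM, and its difference of -6.18 (SE 0.27, limma adjusted p 4.36e-13) had the smallest adjusted p of the named genes. Of 83 nuclear genes of oxidative phosphorylation 44 were lower (53%) and 8 higher (9.64%). Ndufs8, an iron-sulfur subunit of complex I, stood at 0.814, 3.92, 0.882, 2.67 and 2.07 against 140.2 to 245 (median 180.4) CPM (-5.99 (SE 0.29, limma adjusted p 1.4e-12)), and Atp5g1 of the ATP synthase was at -3.42. Cox6b2, the testis form of a cytochrome oxidase subunit, was higher (1.49, 839 ± 135 against 298 ± 36 CPM). Of 37 genes of glycolysis and the citrate cycle 18 were lower (48.6%) and 7 higher (18.9%). Mdh2 (malate dehydrogenase) was at -3.88 and Idh3a (isocitrate dehydrogenase) at 1.12. Of 38 proteasome genes 24 were lower (63.2%) and 1 higher (2.63%). Psmb10, a catalytic subunit of the immunoproteasome, was at -4.98 and the ATPase Psmc4 at -4.51, while Psmd9, an assembly chaperone, was at 1.5.

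RNA that the egg stores was higher in Duxbl embryos. Of 54 maternal oocyte transcripts 41 were higher and 1 lower, with a median of 1.63, against 26.8% higher over all genes. Nlrp9c, of a family of oocyte NLR proteins, stood at 1467, 1678, 1753, 2298 and 2492 against 377 to 602 (median 456) CPM (2.04 (SE 0.22, limma adjusted p 6.56e-08)). Fbxw24, an oocyte F-box gene, stood at 1520.1, 1138, 1803, 1184 and 1608 against 369 to 522 (median 495) CPM (1.62 (SE 0.17, limma adjusted p 6.52e-08)). For both, the Duxbl libraries stood near the early 2C medians of 1744 and 1759.8 CPM. Other members called higher, picked after the calls were seen, include the egg coat genes Zp1 and Zp2, the growth factor genes Gdf9 and Bmp15 and the maternal effect genes Nlrp5, Ooep, Tle6 and Padi6. The member that was lower, Sohlh1, a factor of early oocytes, normally rises at this step and stood at 0 to 0.829 against 3.77 to 47.2 CPM (-3.31).

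Genes that destroy maternal RNA moved both ways. Of 42 tested, 17 were higher (40.5%) and 11 lower (26.2%), with a median of 0.48. Over all genes 26.8% were higher and 29.1% lower. Btg4, the maternal adaptor that brings the CCR4-NOT deadenylase to stored mRNA, stood at 2392, 3908, 2996, 4784 and 4256 against 537 to 1561 (median 793) CPM (2.08 (SE 0.23, limma adjusted p 1.38e-07)). Cnot7, a deadenylase of that complex, stood at 1366, 1670.3, 1911, 1940.2 and 1836 against 364 to 714 (median 483) CPM (1.82 (SE 0.19, limma adjusted p 6.29e-08)). Both normally fall, and both stood near their early 2C levels in Duxbl embryos (medians 4077 and 1375 CPM). Cnot10, another subunit, normally rises and stood at 7.85, 3.06, 8.04, 2.25 and 1.61 against 50.7 to 87.5 (median 65.1) CPM (-3.79 (SE 0.33, limma adjusted p 4.83e-09)).

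**Figure D4:**
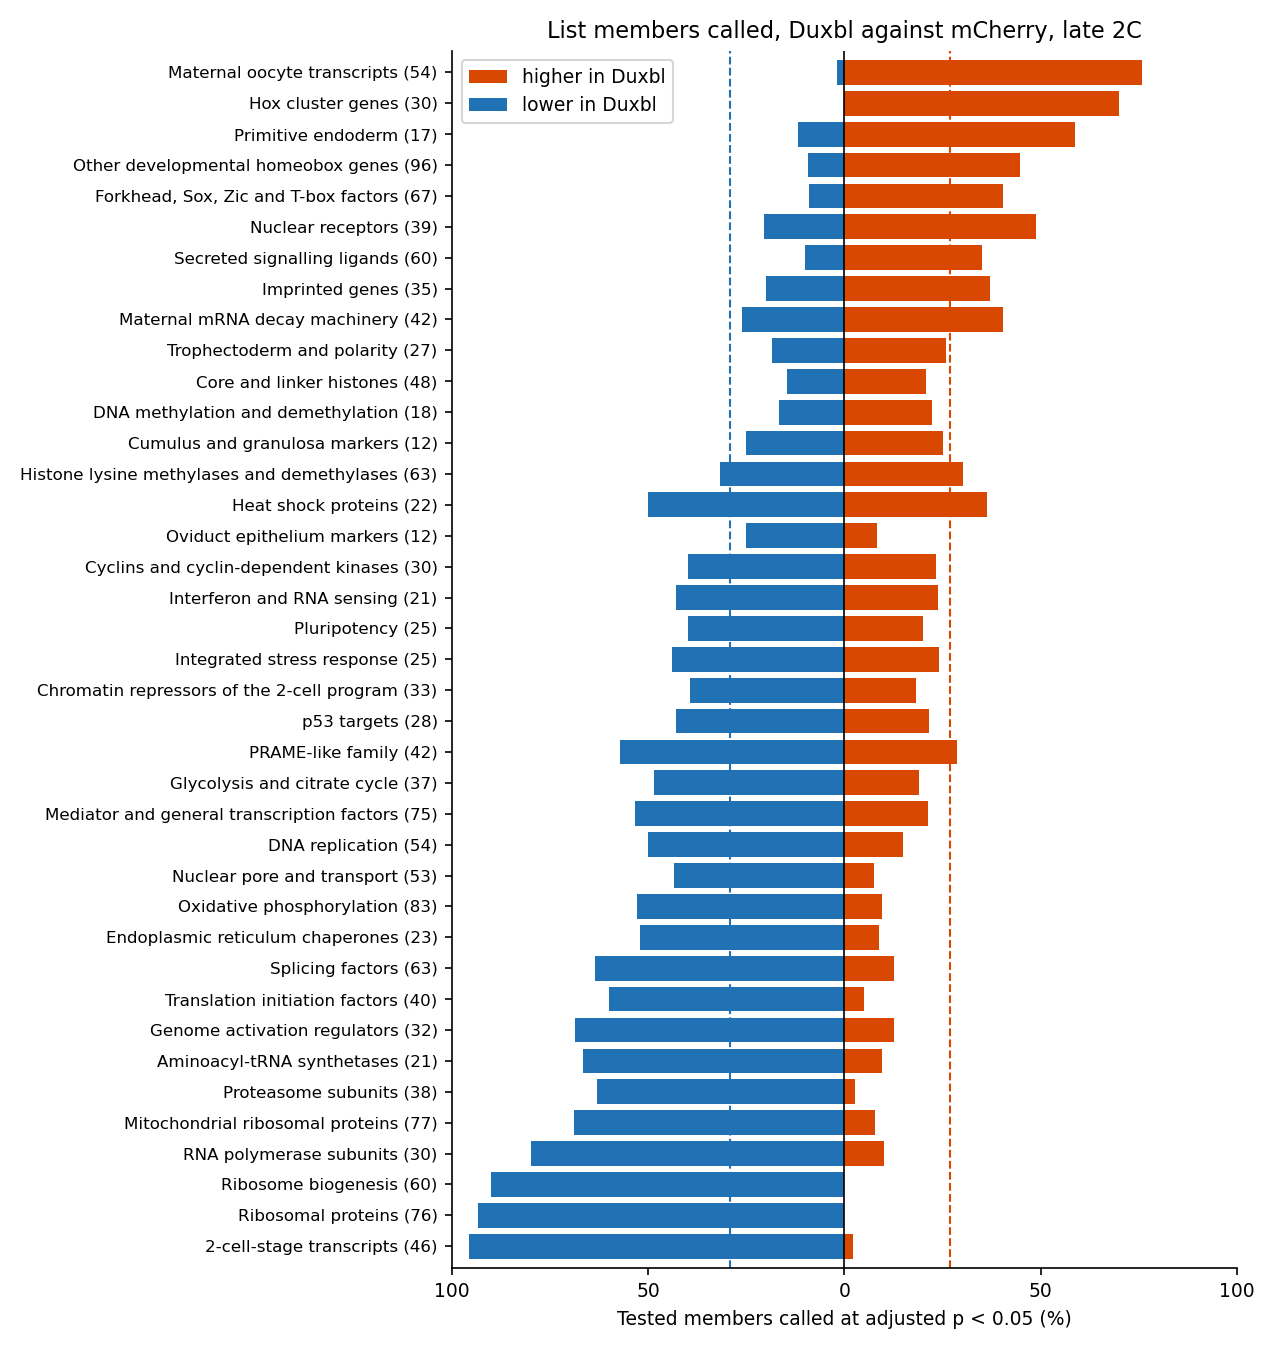
Share of the tested members of each gene list with at least 10 tested genes (number in brackets) that were called higher (right) or lower (left) in Duxbl than in mCherry embryos at late 2C; dashed lines mark the 26.8% higher and 29.1% lower over all genes tested. The 2-cell-stage transcripts, ribosomal proteins and ribosome biogenesis stand at the lower end and maternal oocyte transcripts and Hox genes at the upper end.

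Cell division genes were lower more often than higher, against 29.1% lower and 26.8% higher over all genes. Of 54 DNA replication genes 27 were lower (50%) and 8 higher (14.8%), with a median of -0.88. Their summed levels overlapped, at 6005 to 8244 CPM in Duxbl (median 7356) and 4432 to 7185 CPM in mCherry libraries (median 5875). Cdc45, which activates the replicative helicase, stood at 36.5, 26.6, 18.7, 15 and 8.15 against 114 to 265 (median 185) CPM (-3.14 (SE 0.35, limma adjusted p 1.57e-07)), and Gins3 of the same helicase was at -4.55. Dbf4, the activator of the kinase Cdc7, was higher (1.61, 2052 to 2580.4 against 570.5 to 930.4 CPM). Of 30 cyclin and cyclin-dependent kinase genes 12 were lower (40%) and 7 higher (23.3%). Sums over these genes also overlapped, at 4126 to 5569 against 4023 to 6418 CPM. Cdk1, which drives entry into mitosis, stood at 65, 12.1, 26.2, 15 and 27.9 against 189 to 426 (median 320.4) CPM (-3.54 (SE 0.35, limma adjusted p 3.07e-08)), and Cdc25c, the phosphatase that activates it, was at -3.72. Wee2, the oocyte kinase that holds it back, normally falls and was higher (2.11). Inhibitors were lower in 5 of 8 cases. Cdkn1a (p21) was at -3.84, and Cdkn3, a phosphatase acting on cyclin-dependent kinases, at -4.83. Cdkn2a, the locus of p16 and p19Arf, is near 0 in normal embryos and stood at 45.7, 21.2, 29.6, 19.2 and 33.1 against 0.245 to 1.74 (median 0.594) CPM (4.11 (SE 0.38, limma adjusted p 9.76e-09)).

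Stress pathways had more lower than higher members, against 29.1% lower and 26.8% higher over all genes. Of 28 p53 targets 12 were lower and 6 higher, of 25 genes of the integrated stress response 11 and 6, of 23 endoplasmic reticulum chaperones 12 and 2, and of 22 heat shock genes 11 and 8. The lower members made up 42.9%, 44%, 52.2% and 50% of these lists and the higher members 21.4%, 24%, 8.7% and 36.4%. Their medians were -0.51, -0.50, -0.67 and -0.65. Sesn2, a stress-induced regulator of growth signalling, stood at 0.468 to 16.8 against 86.8 to 207 CPM (-4.72). Trib3, a pseudokinase induced by amino acid shortage, was at -4.38, and the chaperone genes Dnajb11 and Hsph1 were at -3.8 and -3.68. Mdm4, an inhibitor of p53, was higher at 1.62 (5131 to 7033 against 1669 to 2356 CPM). Of 21 interferon and RNA sensing genes 9 were lower and 5 higher, with a median of -0.04 that turned to 0.01 on the deposited scale. Irf7, a driver of interferon genes, was lower (-4.38). Ddx58, the sensor RIG-I, was higher (3.14, 99 to 238 against 5.88 to 57.5 CPM), near its early 2C median of 141.

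Chromatin lists are set against the shares over all genes, 29.1% lower and 26.8% higher. Of 33 repressors of the 2-cell program 13 were lower (39.4%) and 6 higher (18.2%). Trim28, the corepressor of KRAB zinc finger proteins, stood at 15.3, 7.58, 9.17, 18.9 and 6.45 against 132 to 238 (median 154) CPM (-3.87 (SE 0.31, limma adjusted p 1.03e-09)), and L3mbtl2 of the Polycomb complex PRC1.6 was at -4.92. Max, a further PRC1.6 component, was higher at 2.4. Of 63 histone lysine methylases and demethylases 20 were lower (31.7%) and 19 higher (30.2%), near the shares over all genes, with a median of 0.14 that turned to -0.18 with library totals alone. Kdm5b, which removes H3K4 methylation in the 2-cell embryo, was at -2.78, Kdm4c, an H3K9 demethylase, at -2.82 and Kdm7a at 1.74. Of 18 genes of DNA methylation and its removal 4 were higher and 3 lower, with a median of 0.03 that turned to -0.28 with library totals alone. Zfp57 and Zfp445, which protect imprints, went opposite ways (1.41 and -1.6). Of 48 histone genes 10 were higher and 7 lower, with H4c4 at 2.55 and the variant gene H2az2 at -2.79.

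Lists of the first lineages held members on both sides. Of 25 pluripotency genes 10 were lower (40%) and 5 higher (20%), against 29.1% and 26.8% over all genes. Klf5 (-3.25 (SE 0.37, limma adjusted p 1.52e-07)) and Klf2 (-3.61 (SE 0.46, limma adjusted p 8.49e-07)), Krüppel-like factors that normally rise, were lower, as were Zfp42, Esrrb, Nr5a2 and Fgf4. Tcl1, a maternal cofactor of Akt kinase, stood at 4885, 6582, 5926, 6948 and 5881 against 789 to 2884 (median 1135) CPM (2.24 (SE 0.26, limma adjusted p 2.91e-07)). Pou5f1, Sox2, Nanog and Lin28a were the other members called higher. RNA stored in the egg and RNA newly made cannot be told apart in these values. Of 27 trophectoderm and polarity genes 7 were higher (25.9%) and 5 lower (18.5%), no more than over all genes, with a median of -0.14, and the majority turned to lower with library totals alone. Tead4, the factor at the head of the trophectoderm program, stood at 0.144, 0.151, 0.147, 0.0468 and 0.184 against 4.83 to 38.4 (median 18.2) CPM (-3.88 (SE 0.44, limma adjusted p 1.73e-07)). Gata3, which acts after it, normally falls and stood at 88.5, 87.1, 102, 112 and 74.1 against 3.19 to 29.1 (median 11.1) CPM (2.98 (SE 0.41, limma adjusted p 2.53e-06)). Of 17 primitive endoderm genes 10 were higher and 2 lower, with Dab2 at 2.72 and Amn at -3.41. Sox7 was listed at 0 in all 6 mCherry libraries and at 6.8, 1.96, 21.8, 13.4 and 5.48 CPM in the Duxbl libraries.

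Regulators of later development were more often higher than lower in Duxbl embryos, against 26.8% higher and 29.1% lower over all genes. Of 30 tested Hox genes 21 were higher and 0 lower, with a median of 1.71. They came from all 4 clusters, with 7 of 10 tested genes higher in the Hoxa, 5 of 8 in the Hoxb, 7 of 7 in the Hoxc and 2 of 5 in the Hoxd cluster. Hoxb7 stood at 28.4, 17.1, 36.6, 45.1 and 23.5 CPM in Duxbl and 0 to 0.202 (median 0.0241) in mCherry libraries (4.81 (SE 0.45, limma adjusted p 1.1e-08)), and Hoxc8 at 8.23, 7.43, 22.7, 9.6 and 13.1 against 0 to 0.0525 CPM (3.59 (SE 0.32, limma adjusted p 5.49e-09)). These proteins set position along the body axis. Hox genes summed to 519 to 649.7 CPM in Duxbl, 70.2 to 137 in mCherry and 143 to 197 in uninjected early 2C libraries. Of 96 other developmental homeobox genes 43 were higher (44.8%) and 9 lower (9.38%). Their sum of 2220.1 to 2515 CPM stood against 597 to 1141 in mCherry libraries, and uninjected early 2C libraries already held 1603 to 1957 CPM. Pou3f2, of neural progenitors, stood at 20.8, 13.7, 27, 48.5 and 22 against 0 to 0.101 (median 0.071) CPM (4.58 (SE 0.34, limma adjusted p 4.44e-10)). Meis2, a Hox cofactor stored in the egg, stood at 978, 1063, 1172, 1020.2 and 948 against 119.8 to 278 (median 178) CPM (2.54 (SE 0.25, limma adjusted p 2.45e-08)). Lmx1a, of the roof plate and midbrain, normally rises and was lower (-4.23). Neighbouring Hox genes lie close together and the libraries carry no strand, so reads of antisense transcripts there cannot be told apart.

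Other developmental lists also held more higher than lower members, against 26.8% higher and 29.1% lower over all genes. Several had summed levels that overlapped those of uninjected early 2C embryos. Of 67 forkhead, Sox, Zic and T-box genes 27 were higher (40.3%) and 6 lower (8.96%), with a median of 0.65. Zic5 stood at 41.6, 27.8, 74, 77.8 and 82.3 against 0.0937 to 6.74 (median 1.11) CPM (4.67 (SE 0.67, limma adjusted p 4.37e-06)) and Zic4 at 3.6, both zinc finger genes of the neural tube. Sox15, which normally rises at this step, was lower (-4.39). These genes summed to 2038 to 2772 CPM in Duxbl libraries, 1152 to 1620.4 in mCherry and 2179 to 2894 in uninjected early 2C libraries. Of 39 nuclear receptor genes 19 were higher (48.7%) and 8 lower (20.5%). Sums over this list were 1583 to 1991 CPM in Duxbl, 651 to 809 in mCherry and 1465 to 1631 in uninjected early 2C libraries. Esr2, the oestrogen receptor beta of the ovary, stood at 158, 209, 194, 179 and 192 against 8.06 to 43.3 (median 19.6) CPM (3.16 (SE 0.34, limma adjusted p 8.34e-08)), below the early 2C median of 259.5. Of 60 secreted ligands 21 were higher (35%) and 6 lower (10%). Their sums were 3727 to 4903 CPM in Duxbl, 824 to 1457 in mCherry and 3892 to 5384 in uninjected early 2C libraries. Tgfb2, a stored transcript, stood at 1334, 2023, 1222, 1811 and 1622 against 179 to 427 (median 264) CPM (2.62 (SE 0.25, limma adjusted p 1.21e-08)), and Fgf1 was lower (-4.23). Of 35 imprinted genes 13 were higher (37.1%) and 7 lower (20%), with sums that overlapped between Duxbl (864 to 1633 CPM) and mCherry libraries (867 to 1257 CPM). Gnas, of a G protein subunit, stood at 51.4, 55.7, 99, 85.8 and 42.5 against 0.637 to 7.43 (median 2.25) CPM (4.2 (SE 0.54, limma adjusted p 9.25e-07)), and Mcts2, a retrogene expressed from the paternal copy, was at -4.7. For the last the allele was not measured.

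A stricter view asked which genes were at 10 CPM or more on average in Duxbl embryos and under 1 CPM in mCherry and uninjected late 2C and uninjected early 2C embryos. This definition was made after values had been seen and rests on the same contrast, so it is a description with no test. It held for 77 genes, 37 of them protein coding. Among the protein-coding genes were 5 Hox genes. Npffr1, a neuropeptide receptor, was at 29.1 ± 17.5 against 0.807 ± 1.28 CPM. Itga1, a collagen-binding integrin, was at 21.5 ± 25.2 against 0.218 ± 0.277 CPM. Neurod2 and Olig3, factors of neurons and of the dorsal neural tube, were at 11.6 ± 9.37 against 0.0263 ± 0.044 CPM and 12.1 ± 1.34 against 0.328 ± 0.514 CPM. Bcl11b, of T cells and neurons, averaged 15.6 CPM in Duxbl embryos and 0.666 in mCherry embryos. Lag3, an immune receptor, was at 14.2 ± 12.6 against 0.356 ± 0.476 CPM. These genes are known from different tissues, and the Duxbl libraries differed widely among themselves: library 4 held 142 CPM of Wnt1 and library 3 held 22.4.

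**Figure D5:**
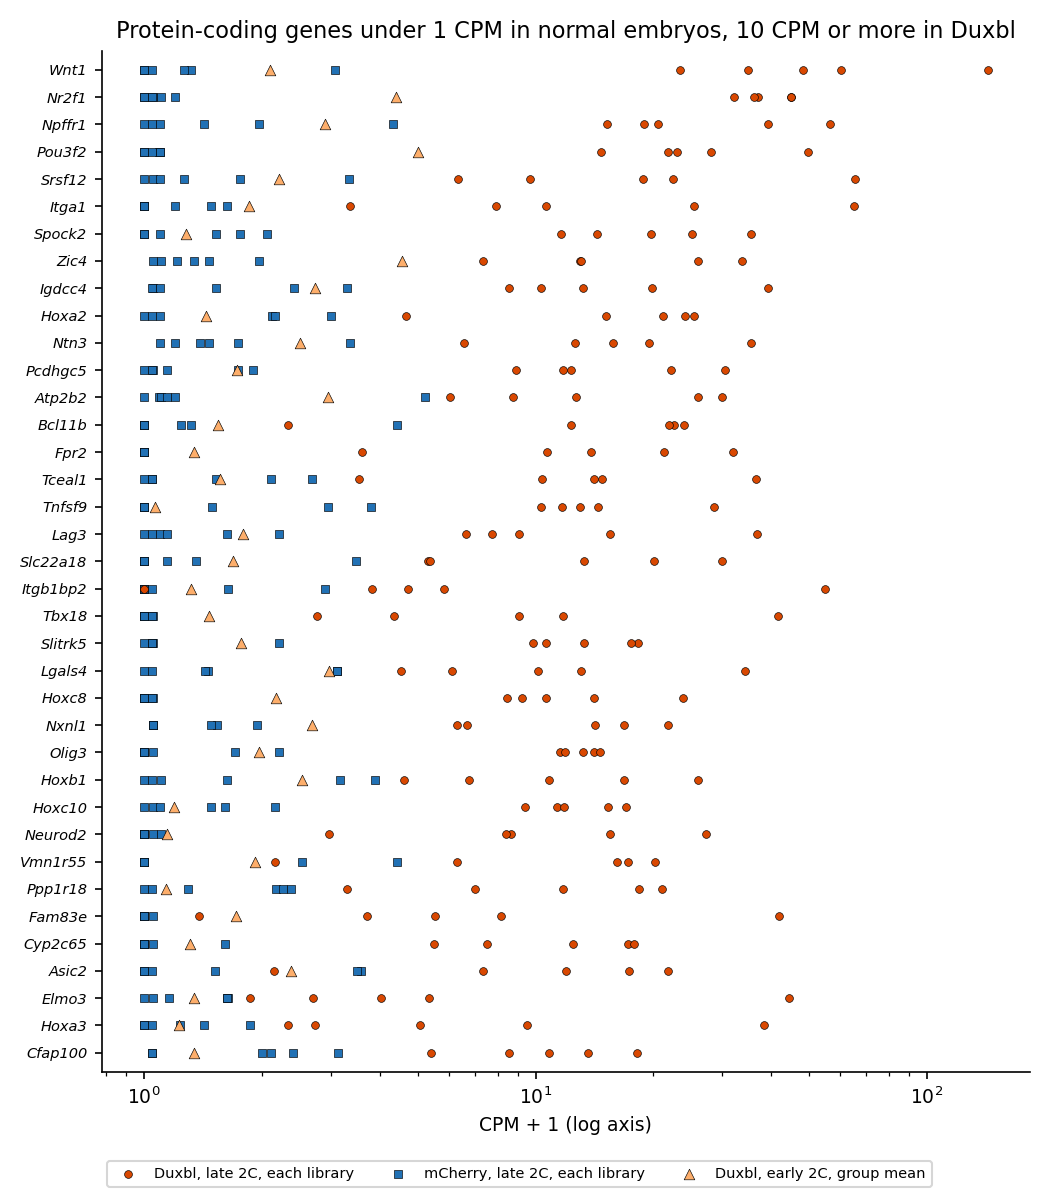
Level of the 37 protein-coding genes that averaged at least 10 CPM in Duxbl embryos at late 2C and under 1 CPM in normal embryos, as CPM + 1 on a log axis; circles are Duxbl and squares mCherry libraries at late 2C and triangles the mean of Duxbl embryos at early 2C. The squares lie near 0 CPM. For many genes the triangle lies among or near the squares, as for Spock2 (0.281 CPM against an mCherry mean of 0.407). For others it lies above them, as for Nr2f1 (3.39 against 0.0682 CPM).

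A minority of genes went against the normal course. Among the 152 normally rising genes that were higher, Tia1, an RNA-binding protein of stress granules, stood at 40.3, 37.3, 116, 54.6 and 56.8 against 4.1 to 9.27 (median 6.17) CPM (2.98 (SE 0.34, limma adjusted p 2.11e-07)). Lrrk2, a kinase known from Parkinson's disease, stood at 43.1, 61.1, 76.2, 88.1 and 74.1 against 2.52 to 15.3 (median 3.99) CPM (3.43 (SE 0.50, limma adjusted p 4.75e-06)). Bcl11a, a zinc finger repressor, stood at 83.3, 17.8, 137, 25 and 55.8 against 0.098 to 11.5 (median 4.23) CPM (3.49 (SE 0.67, limma adjusted p 0.000139)). For all 3, each Duxbl library was above the highest uninjected library of late 2C (6.84, 22.7 and 16.5 CPM). Among the 139 normally falling genes that were lower, Zscan21 stood at 1.34, 6.63, 2.25, 4.5 and 5.8 against 28.3 to 88 (median 57.8) CPM (-3.52 (SE 0.39, limma adjusted p 1.32e-07)), from an early 2C median of 151. Psmc5, a proteasome ATPase, stood at 39.8, 19.4, 11.1, 12.3 and 14.3 against 49.6 to 168 (median 96.2) CPM (-2.39 (SE 0.41, limma adjusted p 3.41e-05)), from 254. The levels of these RNAs, as shares of the library, had fallen further than in control embryos.

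Among normally falling genes that were higher, some stood above their starting level. Lef1, the partner of beta-catenin in Wnt signalling, stood at 577, 535, 489.8, 463 and 663 against 10.5 to 67 (median 34.5) CPM (4.08 (SE 0.43, limma adjusted p 7.1e-08)), while uninjected embryos at early 2C held 189.8 to 241 (median 208). All 5 Duxbl libraries were above the highest of these. Inf2, a formin that assembles actin, stood at 80.2, 38.8, 182, 25.8 and 46 against 0.315 to 2.11 (median 0.474) CPM (5.06 (SE 0.44, limma adjusted p 4.34e-09)), and uninjected early 2C libraries had a median of 3.09. Grm4, a glutamate receptor, stood at 133, 288, 104, 132 and 95.7 against 3.11 to 22.2 (median 8.66) CPM (3.77 (SE 0.48, limma adjusted p 7.7e-07)), near its early 2C median of 146. On the other side, Alppl2, an alkaline phosphatase of the early embryo, stood at 3.11, 0.904, 1.57, 1.22 and 3.5 against 180.2 to 535 (median 317) CPM (-6.79 (SE 0.37, limma adjusted p 7.31e-12)), below its early 2C median of 12.2.

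The difference between Duxbl and control embryos was larger at late than at early 2C for many genes. The difference between Duxbl and mCherry embryos at late 2C was itself different from that at early 2C for 12945 of 28808 genes (44.9%), 6298 in the higher (21.9%) and 6647 in the lower direction (23.1%), in a limma fit of all 9 groups. Of the 6703 genes called lower at late 2C 6085 passed this test in the same direction, and of the 6173 called higher 5459. The late 2C difference that chose these genes is part of the test, so a shared direction is largely built in. The late effect exceeded the early effect by 4.63 for Wnt1, 3.97 for Nr2f1 and 4.52 for Hoxb7 on the log2 scale, and was more negative by -7.43 for Obox8 and -6.77 for Trim43a. For Zscan4d, already low in Duxbl embryos at early 2C, it was -3.25. Duxbl1 itself did not pass this test (limma adjusted p 0.0936).

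The shares of higher and lower genes differed between some kinds of gene, against 26.8% higher and 29.1% lower over all genes. Of 3414 long non-coding RNA genes 32.2% were higher and 20.2% lower, and of 2840 pseudogenes 16.3% and 32.9%. Pseudogenes can share reads with the genes they resemble, so their calls are uncertain. Protein-coding genes stood at 27.1% higher and 31.2% lower of 15880, near the shares over all genes. By chromosome the share of higher genes ran from 19.4% on chromosome 11 (36.4% lower) to 34.9% on chromosome 6 (22% lower), leaving out the Y chromosome with 10 tested genes. Higher protein-coding genes spanned a median of 37.7 kb of genome and lower ones 15.8 kb, against 23 kb over all protein-coding genes tested. The span runs from the start to the end given in the deposited table, introns included, and was not compared within levels of expression.

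Start regions were found in RefSeq for 12569 of 15488 tested protein-coding genes (81.2%), leaving out chromosome 18. The ratio of observed to expected CG dinucleotides had a median of 0.677 in genes higher in Duxbl embryos, 0.75 in lower genes and 0.705 in all. It exceeded 0.6 in 58.3%, 69.9% and 62.2% of them. In the 77 genes nearly silent in normal embryos, 30 of 36 protein-coding genes had a start region and 40% of these exceeded 0.6. Of the 2-cell-stage transcripts 18 of 44 had a start region, and 0% of these exceeded 0.6, with a median ratio of 0.0845 and a median GC share of 44.7%. These 18 are too few of the 44 to stand for the list.

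Markers of cells that could come along with an embryo were looked at beside these results, against 26.8% higher and 29.1% lower over all genes. Of 12 tested cumulus and granulosa genes 3 were higher and 3 lower (25% each), near the shares over all genes. Their summed level over 19 genes overlapped between Duxbl (62.4 to 94.5 CPM) and mCherry (65.9 to 99.8 CPM) libraries. Without Amhr2, the member with the highest level, the other 18 summed to 62 to 94 against 37.5 to 62.5 CPM. Inha was listed at 0 in all 11 libraries and Fshr, Inhba and Cd44 stayed under 1 CPM. Other members were present, with means of 18.2 against 3.85 CPM for Cyp19a1, 14.8 against 1.86 for Wt1, 17.7 against 11.4 for Kitl and 0.655 against 36.9 for Amhr2. Of 12 tested oviduct genes 3 were lower (25%) and 1 higher (8.33%), with sums over 14 genes of 181 to 281 against 491 to 890.2 CPM. Without Tubb4b, a tubulin that many cells express, the other 13 overlapped, at 126 to 226 against 124.2 to 207 CPM. Ovgp1, the oviduct glycoprotein gene, stood at 71.4, 15.6, 38.5, 89.2 and 45.6 against 2.42 to 11.3 (median 5.54) CPM (2.89 (SE 0.45, limma adjusted p 1.12e-05)), while Tubb4b was at -3.28. Foxj1, the master gene of ciliated cells, stayed under 1 CPM in all 11. Of 8 tested sperm genes 4 were lower (50%) and 2 higher (25%), with sums over 15 genes of 201 to 329 against 76.1 to 138 CPM. Odf2, which is also a centrosome gene, was at 1.71, and without it the other 14 overlapped, at 11.8 to 39.7 against 20.1 to 54.7 CPM. Of 5 tested blood genes 3 were lower (60%) and 0 higher, with sums over 10 genes of 7.55 to 21.1 against 31.8 to 57.9 CPM. Alas2, Ptprc and Tyrobp stayed under 1 CPM, while the globin genes Hba-a1 and Hba-a2 averaged 1.42 and 2.21 CPM in Duxbl and 14.7 and 16.9 in mCherry libraries, and Lyz2 and Cd79a 4.51 and 0.311 against 9.15 and 4.12 CPM. Members to leave out of a sum were chosen after the values were seen. The part of such cells in the results was not tested.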

How the data were processed

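RNA was measured in pools of 5 embryos with a SMART-Seq v4 and a Nextera XT kit and paired-end sequencing, per the labels' protocols; neither kit marks the strand. The authors' deposited table gives 1 whole number for each of 35750 genes in 50 libraries, with mm39 coordinates. The build mm39 is named in the submitters' processing notes, as are DESeq2 1.36.0 and DESeq, featureCounts 2.0.4, STAR 2.7.10a, Trimmomatic 0.39 and Picard 3.0.0, with no roles given in the sources used here. These deposited numbers were handled as a score, not as read counts, because in the 17 late 2C libraries low values lie 0.662 to 1.52 apart per read. They appear to be counts scaled per library and rounded, so a count model was not used and approximate depths were total divided by step. The lowest maximum of any gene was 6, so low genes had been removed, and no mitochondrially encoded gene was present.

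From these values CPM were computed with trimmed-mean scaling over the 50 libraries (30% of ratios and 5% of abundances trimmed), and 1 CPM was added before log2. Genes with a value of at least 10 in at least 5 late 2C libraries were tested with limma 3.58.1 in R 4.3.3 (trended, robust prior) in a fit of the 3 late 2C groups. The normal course and the stage difference came from a fit of all 9 groups, with the filter met in at least 4 libraries. For progress and family sums, exact permutation tests (two-sided) over the 11 libraries were used. All comparisons with mCherry embryos share the same 6 libraries. The comparison was also run on simulated data with 22519 genes, of which 100 were changed 2-fold and 100 changed 4-fold. The changed genes were at 10 CPM or more. It recovered 31% of the 2-fold and 77% of the 4-fold changes and called 7 unchanged genes. Far more genes differed in the data, so these rates need not hold there. With scaled values no counting interval was computed, and precision rests on the spread between libraries.

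The comparison, the 44 gene lists, the naming rule and the families were chosen with earlier results of these data known. The rule took the DUX family and the 4 marker genes, then the 4 genes with the largest difference in each crossing of normal course and direction (10 CPM or more in the higher group, no overlap, no provisional name), then from each list with at least 2 calls the 2 smallest adjusted p in the majority direction and 1 in the other. It named 143 genes, which it chose by their difference. Spellings of aminoacyl-tRNA synthetase genes were matched to the table after it was seen. Alternatives were other pseudocounts, filters, scalings, voom weights, other fits, uninjected controls, the library number as a block and leaving out each library.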

Additional observations from a re-analysis of the deposited data

Results flagged for a closer look

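Of 308 sets of values (each named gene, each family sum, both progress measures, the deposited total and the share of the 100 highest genes, in the Duxbl and in the mCherry group), 40 held a library that stood apart from the rest of its group by Dixon's criterion, or 13%. Its chance rate of about 1 in 20 is for independent sets of normally distributed values. These sets overlap and are mostly unlogged CPM, so the 13% cannot be read against that rate. In each of the 40 the library that stood apart was the highest of its group. Duxbl library 1 stood apart in Eif1ad8 (24.3), Irf7 (1.87), Nob1 (7.95), Psmc5 (39.8), Usp17l family sum (50.8), Eif1ad family sum (301) and Tdpoz family sum (40.3), in CPM. In Duxbl library 3 the same was found for Aars (16.97), Amhr2 (1.76), Grm4 (288) and Psmd9 (82.9), in CPM. For Duxbl library 4 the items were Ccdc153 (0.245), Prm1 (0.441), Srsf12 (64.5) and Tia1 (116), in CPM. Duxbl library 6 was set apart by Nap1l3 (5.01), in CPM. The items for Duxbl library 7 were Cdkn3 (2.53), Obox3-ps2 (4.70), Obox8 (10.9), Pramel16 (1.80), Pramel6 (2.26), Sohlh1 (0.829), Zscan4a (1.47) and Zscan4d (4.97), in CPM. Among mCherry libraries, number 1 stood apart in Fars2 (161) and Srsf12 (2.34), in CPM. The mCherry library 3 did so in the most sets, namely Mthfd2 (168), Polr2c (644), Pramel16 (312), Tcl1 (2884), Usp17lc (283), Wee2 (725), Wnt1 (2.07), Zscan4c (217), Tdpoz family sum (883) and Pramel family sum (7482), in CPM. For mCherry library 4 it was Slc22a18 (2.47), in CPM. For mCherry library 6 the items were L3mbtl2 (119) and Wdr74 (289), in CPM. For mCherry library 7 it was Dnajb11 (117), in CPM. The cause of these deviations was not tested.

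The Duxbl effect differed between late and early 2C for 12945 genes by limma's test of that difference, and for 23 of 25 genes named for their size of change or with the comparison. The difference of the log2 effects, late minus early, was positive for AA386476 (3.13), Bcl11a (2.29), Grm4 (3.86), Hoxb7 (4.52), Inf2 (4.36), Lef1 (3.93), Lhfpl1 (3.73), Lrrk2 (3.46), Nr2f1 (3.97), Tia1 (2.47), Wnt1 (4.63) and Zic5 (4.41). It was negative for Alppl2 (-7.16), Nap1l3 (-2.21), Obox3-ps2 (-7.03), Obox8 (-7.43), Psmc5 (-2.23), Trim43a (-6.77), Usp17lc (-1.96), Zscan21 (-3.59), Zscan4-ps1 (-2.97), Zscan4c (-1.99) and Zscan4d (-3.25). These genes were chosen for their effect at late 2C, so this is a description of where the effect arose.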

How the results depend on the processing

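Of the counts and values that answer a comparison, 360 of 364 computed under an alternative kept their direction, their side of the threshold or a size within 1.5 times. The exceptions under the fit of all 9 groups were the genes without a normal change, at 4559 higher and 3022 lower, and mCherry against uninjected embryos, at 40 genes in place of 0. The sum over Obox genes ran from 0.29 to 0.49 (exact permutation adjusted p 0.0476 to 0.206) when libraries were left out in turn, and passed without mCherry library 3 alone. Calls ran from 12117 to 12839 without each library. Of the values for single genes, 3498 kept direction and call, 14 were no longer past the threshold, 2 newly passed it and 0 reversed. With the library number as a replicate block 12667 genes were called (5967 higher and 6700 lower). Same-numbered Duxbl and mCherry libraries had correlations of -0.00652 to 0.0930, and differently numbered ones -0.0770 to 0.0779. All were weak, but the highest was of a same-numbered pair. The main fit did not take the numbers to pair the tubes, and whether they mark a shared session was not tested. The cause of the moved counts was not tested.

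Limits are the unknown origin of tubes, scaled values without true depth, shared reads among gene copies, pooled cells, and the lack of strand. Low genes near 1 CPM are compressed by the added 1 CPM.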
